A study of Homo sapiens with 8 samples.

Results

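The 4 arrays compared here measured RNA of a melphalan-resistant multiple myeloma line, U266/LR7, and of the line given as its parent, U266/s, in cells that had not received melphalan. They were chosen by their labels and make up 4 of the 8 arrays of the series, which also holds the same conditions with 100 µM melphalan. Each line contributed 1 array of cells transfected with a negative control oligonucleotide and 1 array of cells transfected at 100 nM with oligonucleotides that block miR-221 and miR-222, a pair of microRNAs. Cells were collected 12 h after treatment, and total RNA was hybridised to 1-colour Affymetrix gene arrays. The shared protocol text can also be read as if U266/s cells had been left untreated, but the tag of the U266/s control array names the negative control. U266/LR7 is 1 resistant line, so its differences from U266/s belong to that line and not to resistance in general. How it was selected, and whether it is a clone or a pool, is not given in the sources used here. No condition was repeated. A U266/LR7 array was therefore set against the U266/s array of the same transfection, which gave 2 matched pairs.

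Multiple myeloma is a cancer of plasma cells, the antibody-secreting end stage of the B lineage, and its cells are recognised by surface proteins such as syndecan-1 and CD38. Melphalan is an alkylating drug that enters cells through amino acid transporters, crosslinks DNA and can be bound by glutathione. Uptake, efflux, glutathione conjugation, DNA repair and the threshold for apoptosis are the classical places where a resistant cell can differ from a sensitive one, and growth in the bone marrow further depends on adhesion molecules, chemokines and cytokines.

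The 2 microRNAs blocked on the inhibitor arrays are given first because both lines received the same inhibitors. Their mature sequences, credited to RefSeq (GRCh38.p14) and written 5′ to 3′ with the seed (bases 2 to 8) in capitals, lie on the minus strand of the X chromosome, miR-221-3p at chrX:45746180-45746202 and miR-222-3p at chrX:45747036-45747056.
hsa-miR-221-3p: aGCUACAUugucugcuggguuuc
hsa-miR-222-3p: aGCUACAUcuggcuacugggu
Both carry the seed GCUACAU. The array probes for the microRNA genes gave for MIR221 log2 signals of 5.27 and 5.26 against 5.24 and 5.97. The control array comes first and the inhibitor array second, and U266/LR7 before U266/s, in every set of values that follows. MIR222 gave 4.25 and 4.04 against 4.03 and 6.20. All 8 values lay at or below the floor defined below, and the MIR222 difference came from the U266/s inhibitor array, since without it the difference was 0.12. These probes therefore gave no measure of the microRNAs.

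Values are log2 RMA signals, on which a difference of 1 is a 2-fold change. Over the genes tested the 2 arrays of a line correlated at 0.991 (U266/LR7) and 0.994 (U266/s), and arrays of different lines at 0.929 to 0.933. Quartile ranges over all transcript clusters lay between 3.58 and 3.70 log2 units, so no array stood apart in its spread. A gene is called where limma, with the transfection as a block and Benjamini-Hochberg adjustment over all genes, gave an adjusted p under 0.05. That fit had 1 residual degree of freedom per gene and took its error almost wholly from genes of like signal. Single genes are therefore given with the standard error of this fit (±) and the adjusted p of a limma fit to all 8 arrays (3 residual degrees of freedom). The 8-array fit still borrowed most of its error from other genes, with 8.22 prior degrees of freedom. The line difference in the 8-array fit is the same one, from the same 4 arrays. Only its error differs, so that fit can change a call but not its direction. Using that p was chosen after seeing the data. The labels do not say whether cultures were separate. The p-values therefore measure the spread between these arrays only, which may be technical. RMA signals are not compared between genes, since probes differ in brightness.

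Before the comparison, both lines were set against the identity that the labels give. Both expressed plasma cell genes. IRF4, a transcription factor on which plasma cells depend, gave 12.56 and 12.36 in U266/LR7 and 12.59 and 12.51 in U266/s. The secretory factor XBP1 gave 12.38 and 12.02 against 12.06 and 11.90, and PRDM1, the plasma cell repressor BLIMP1, 11.51 and 11.40 against 11.79 and 11.76. These 3 genes were not called in the 4-array fit, and PRDM1 was lower in the 8-array fit (-0.32, adjusted p = 0.042). Of 23 plasma cell identity genes measured, 21 lay above the floor on all 4 arrays. In U266/LR7 6 were called higher and 7 lower, or 56.5% called against 32.5% of all genes tested. Of 18 B cell markers 7 lay at the floor in both lines, among them MS4A1 (CD20), at 4.20 and 4.51 against 4.29 and 4.33, and 9 lay above it on all 4 arrays, among them the B cell receptor gene CD79B, at 8.35 and 8.16 against 7.80 and 7.84. Of these markers 2 were higher and 3 lower (27.8% called). Of 25 T and NK cell markers 9 lay at the floor in both lines. Among them were the T cell receptor complex genes CD3D, at 5.59 and 5.38 against 5.47 and 5.73, and CD3G. Of the 25 markers 10 lay above the floor on all 4 arrays, and 5 of the 25 were higher and 3 lower (32.0% called). The co-receptor gene CD8B was among the higher ones, at 8.86 and 9.07 against 6.28 and 6.68 (2.48 ± 0.21, adjusted p = 7.6e-07). The mean signal of the B cell markers was 5.99 and 6.01 against 6.14 and 6.19, that of the T and NK cell markers 6.63 and 6.60 against 6.38 and 6.53, and that of the 17 myeloid markers 6.07 and 6.13 against 5.89 and 6.11. The part of other cell types in the differences was not tested.

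Some genes used to tell myeloma lines apart differed widely. U266 is known as a line that secretes an IgE antibody with a lambda light chain, carries a rearranged cyclin D1 gene and expresses MYCL in place of MYC. IGKC, the kappa light chain constant gene, gave 8.65 and 8.69 in U266/LR7 and 13.22 and 13.26 in U266/s, a difference of -4.57 ± 0.17 (adjusted p = 1.36e-09). MYC gave 6.54 and 6.59 against 12.45 and 12.29 (-5.81 ± 0.21, adjusted p = 1.74e-09). Both genes were thus high in the line labelled as the parent and low in the derivative. The lines overlapped in neither gene, nor did they in 62.9% of all genes tested. The related MYCL was higher in U266/LR7, at 10.41 and 10.39 against 9.06 and 8.61 (1.57 ± 0.21, adjusted p = 8.66e-06). CCND1, encoding cyclin D1, was present in both lines, at 11.56 and 11.55 against 10.35 and 10.27 (1.24 ± 0.17, adjusted p = 1.14e-05). IL6, a growth factor that U266 cells are known to make for themselves, was also higher, at 9.08 and 9.47 against 7.61 and 7.68 (1.63 ± 0.22, adjusted p = 5.75e-06).

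Of 8 measured genes that are missing from the genome of many people, 3 were higher and 0 lower, a share of 37.5% against 32.5% of all genes. GSTM1, a glutathione transferase, gave 11.12 and 10.90 against 7.84 and 7.56 (3.31 ± 0.21, adjusted p = 1.7e-07), and GSTT1, another transferase, 9.75 and 9.61 against 7.11 and 7.01 (2.62 ± 0.22, adjusted p = 1.46e-07). APOBEC3B, a cytidine deaminase, gave 12.65 and 13.07 against 11.58 and 11.40 (1.37 ± 0.13, adjusted p = 9.41e-06). UGT2B17 was at the floor in both lines, at 3.47 and 3.55 against 3.30 and 3.23. With the error of the 8-array fit, which rests on the same differences, the counts were 3 and 0. At the floor in both lines lay 4 of the 8 genes. No genotype was among the files analysed, and whether the 2 lines share 1 origin was not tested.

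The lines differed in 5984 of 18417 genes (32.5%), of which 2928 were higher in U266/LR7 (15.9%) and 3056 lower (16.6%). A difference of at least 2-fold was reached by 2334 genes (12.7%), with 1092 higher and 1242 lower. At larger sizes the lower genes outnumbered the higher, with 348 against 178 at 4-fold or more, 137 against 42 at 8-fold and 58 against 16 at 16-fold. The median difference over all genes was -0.04. The signals of the lines did not overlap for 5930 of the called genes, and for 62.9% of all genes tested. Of the called genes, 5957 ran the same way in both matched pairs. The 8-array fit called 6397 genes (34.7%), among them 5773 of those called in the 4-array fit, with the direction fixed in advance. The count was 3608 without the U266/s control array and 3359 without the U266/s inhibitor array, against 6366 and 6561 without the U266/LR7 control or inhibitor array. These fits to 3 arrays had no block, and the prior degrees of freedom, the weight of the error borrowed from other genes, were 7.37 and 7.49 without a U266/s array and infinite otherwise. Genes called with at least a 2-fold difference numbered 2440 and 2311 without the U266/s control and inhibitor array, against 2334 with all 4 arrays.

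**Figure D1:**
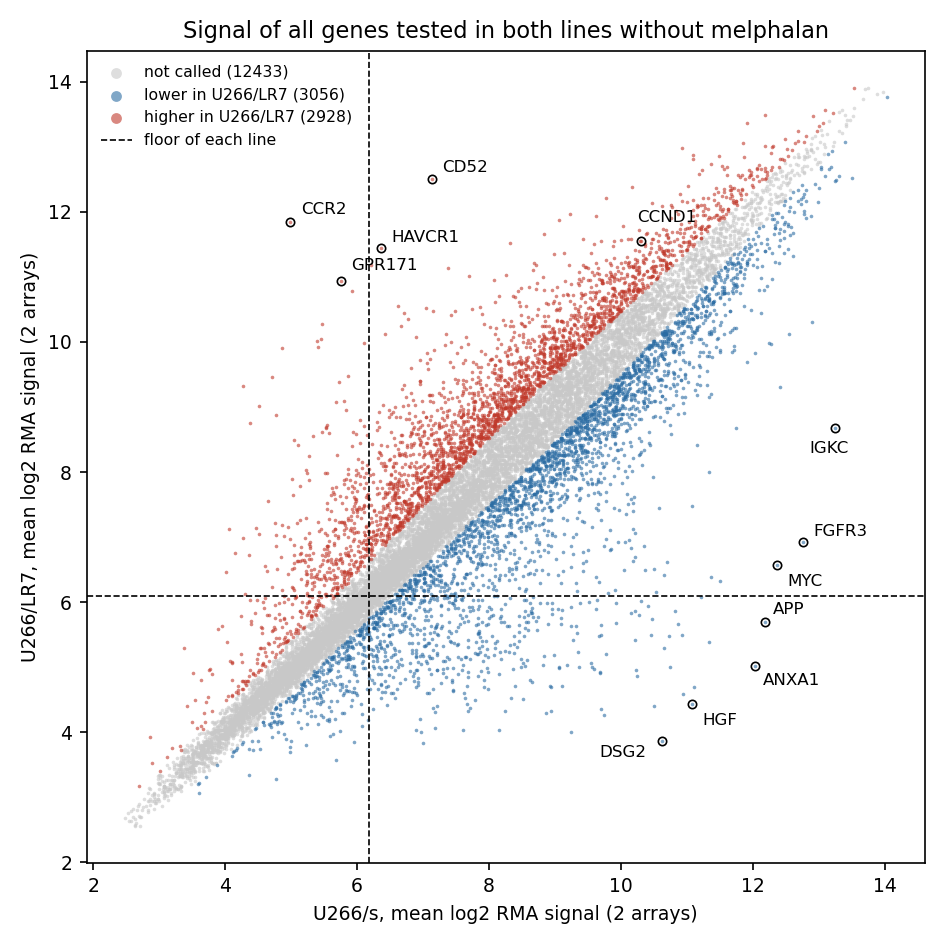
Mean log2 RMA signal of each gene in U266/s (x axis) and U266/LR7 (y axis), 2 arrays per line, coloured by call; dashed lines mark each line's mean floor. The 2928 higher genes (red) lie above and the 3056 lower genes (blue) below the diagonal, and genes such as ANXA1 and HGF fall under the floor of U266/LR7.

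CCR2, the receptor for the monocyte chemoattractant CCL2 (chromosome 3), had the largest rise and gave 11.78 and 11.90 in U266/LR7 and 5.07 and 4.90 in U266/s (6.86 ± 0.22, adjusted p = 7.88e-10). Both U266/s arrays were at the floor, so the ratio is at least 50.6-fold. CD52, a small glycosylphosphatidylinositol-anchored lymphocyte antigen, gave 12.67 and 12.34 against 7.25 and 7.03 (5.37 ± 0.20, adjusted p = 1.33e-09). HAVCR1, the membrane protein TIM-1, gave 11.22 and 11.65 against 6.35 and 6.38 (5.07 ± 0.22, adjusted p = 3.01e-09). All 3 separated the lines by more than 4 log2 units on every array. SH2D1A, the adaptor SAP that binds SLAM family receptors, gave 9.26 and 10.54 against 4.70 and 5.01, at least 13.2-fold. GPR171, a G protein-coupled receptor, gave 10.56 and 11.32 against 5.47 and 6.04, at least 27.1-fold. For these 2 genes the U266/LR7 inhibitor array was the higher one. The other genes among the 15 largest were ZNF729 (5.05), the lipase gene LIPH (4.98), PSD3 (4.87), BPIFC (4.80), the testis-specific bromodomain gene BRDT (4.76), the ion channel relative ANO4 (4.62), the adhesion genes MPZL2 (4.60) and NCAM2 (4.51), COX7B2 (4.50) and FAM133A (4.38), all given as log2 differences. All of these but LIPH lay at the floor on both U266/s arrays, so their ratios are bounds, from at least 5.98-fold for FAM133A to at least 24.4-fold for PSD3.

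ANXA1, the phospholipid-binding annexin A1 (chromosome 9), had the largest fall and gave 4.58 and 5.45 in U266/LR7 and 12.17 and 11.89 in U266/s (-7.01 ± 0.22, adjusted p = 3.01e-09), at least 61.3-fold. DSG2, a desmosomal cadherin, gave 3.87 and 3.87 against 10.69 and 10.57 (-6.76 ± 0.20, adjusted p = 6.11e-09), at least 23.3-fold. HGF, hepatocyte growth factor, gave 4.18 and 4.67 against 11.01 and 11.16 (-6.66 ± 0.21, adjusted p = 1.98e-09), at least 31.8-fold. All 3 lay at the floor on both U266/LR7 arrays and far above it on both U266/s arrays. APP, the amyloid precursor protein, gave 5.51 and 5.88 against 12.07 and 12.29, at least 68.1-fold. FGFR3, a receptor tyrosine kinase activated by translocation in some myelomas, gave 6.69 and 7.15 against 12.81 and 12.70 (-5.84 ± 0.20, adjusted p = 1.36e-09) and stayed above the floor. Further falls were those of IQGAP2 (-6.42), FRZB (-6.36), the T cell signalling gene THEMIS (-6.09), CERS6 (-5.96), the guanylate cyclase subunit gene GUCY1A1 (-5.74), CLIC2 (-5.48), the BMP signal transducer SMAD1 (-5.43), ANK3 (-5.38) and MGST1 (-5.35). All of these were at the floor in U266/LR7, with bounds from at least 12.2-fold for MGST1 to at least 37.9-fold for CERS6.

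**Figure D2:**
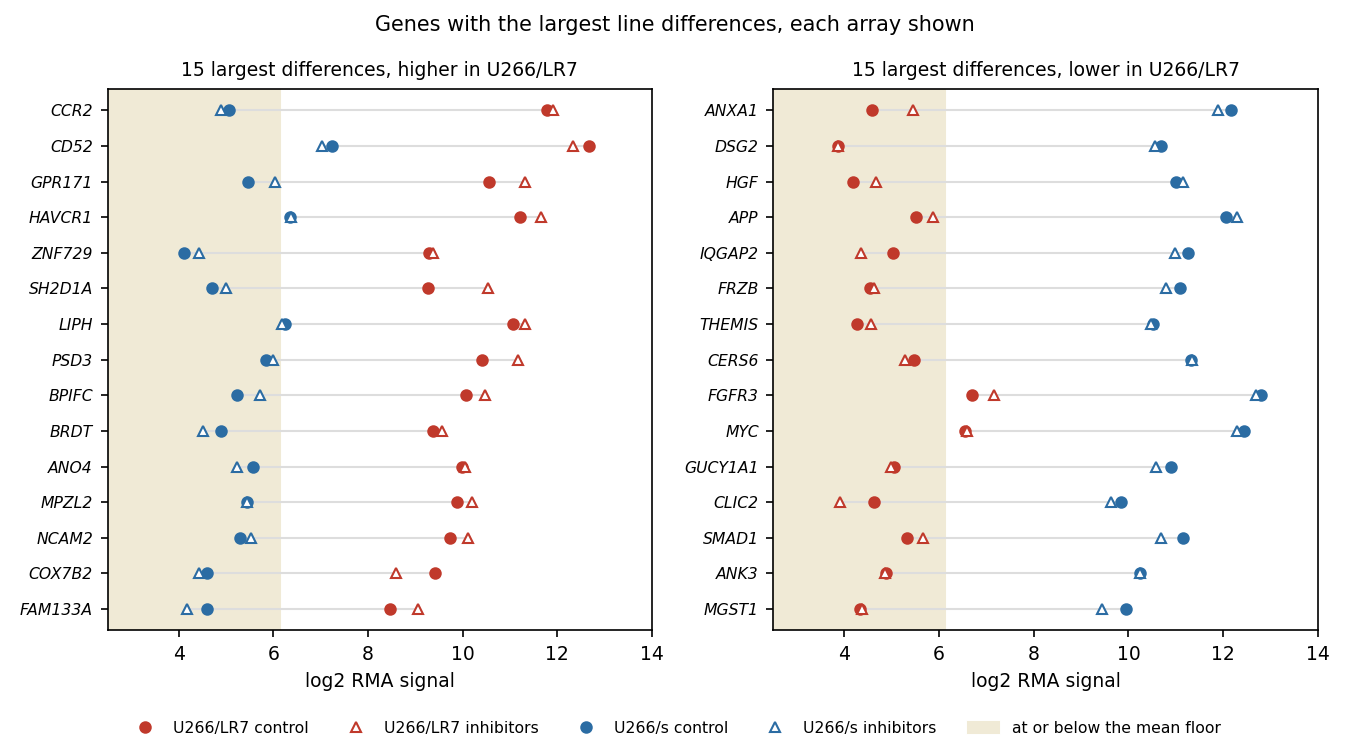
Log2 RMA signal (x axis) of the 15 genes with the largest differences in each direction, with 1 symbol per array; shading marks signals at or below the mean floor. For CCR2, U266/LR7 lay at 11.78 and 11.90 and U266/s at 5.07 and 4.90, and for ANXA1 U266/LR7 lay at 4.58 and 5.45 and U266/s at 12.17 and 11.89.

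Among genes above the floor on all 4 arrays, which give a measured level on both sides, LAPTM5, a lysosomal membrane protein of blood cells, had the largest fall after FGFR3 and MYC and gave 6.35 and 6.42 against 11.45 and 11.30 (-4.99 ± 0.22, adjusted p = 6.11e-09). The membrane serine protease gene ST14 differed by -4.23, NSMAF, an adaptor of the TNF receptor, by -4.09, IKZF1 by -3.99, the myosin gene MYO1G by -3.88, RAB15 by -3.67 and TSPAN7 by -3.59. The largest rises among such genes, beside CD52 and HAVCR1, were PAGE2B (3.94), ZNF730 (3.76), NLRP11 (3.73), TOM1L1 (3.58), the matrix protein gene NPNT (3.57), the neuronal filament gene INA (3.49), DSCR8 (3.32) and GSTM1 (3.31).

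Genes near the floor were counted in each line. The floor of an array was the 95th percentile of 338 olfactory receptor genes, which are not expected in lymphoid cells, and lay at 6.11 and 6.07 in U266/LR7 and 6.07 and 6.29 in U266/s. A total of 470 genes were at the floor on both U266/LR7 arrays and above it on both U266/s arrays, of which 430 were called lower and 360 by at least 2-fold. The opposite pattern was shown by 333 genes, of which 267 were called higher and 191 by at least 2-fold. A gene in either class had to differ between the lines, so these counts describe the classes and test nothing. With the floor at the 99th percentile the called genes numbered 530 and 314, and with the floor at the lower quartile of all genes 400 and 237, so the first class was the larger under all 3 floors. Genes above the floor in both lines numbered 12079 (65.6%), and 37.0% of them were called, with 2318 higher and 2147 lower. Another 4491 genes (24.4%) were at the floor in both lines. Of these 9.33% were called, differences that have no measured level on either side. Of the olfactory receptor genes 3.85% were called, 7 higher and 6 lower.

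Promoter sequence was examined for genes at the floor in U266/LR7 because CpG content is a property that the choice of genes did not use. The 250 bases upstream of the first listed start in RefSeq (GRCh38.p14) were available for 80.1% of the 423 protein-coding genes called in this class. CpG-rich promoters, with an observed over expected CpG ratio above 0.6 and a GC content above 50%, made up 65.2% of them. The share was 73.7% among genes above the floor in both lines and not called, 62.9% among all protein-coding genes tested and 28.2% among genes at the floor in both lines. A share was read only where at least 80% of a class had a promoter sequence. For genes at the floor in U266/s, with 79.6%, the check is void. The promoters of 3 of the largest falls are printed to show how far they differ, with each CG in capitals. ANXA1 (chr9:73151615-73151864, plus strand) holds 0 CpG sites, HGF (chr7:81770048-81770297, minus strand) 6 and APP (chr21:26171129-26171378, minus strand) 12.
ANXA1: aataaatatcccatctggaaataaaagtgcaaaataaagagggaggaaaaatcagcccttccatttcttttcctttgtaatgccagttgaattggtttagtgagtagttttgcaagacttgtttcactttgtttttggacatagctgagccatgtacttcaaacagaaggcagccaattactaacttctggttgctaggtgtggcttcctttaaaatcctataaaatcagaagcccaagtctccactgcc
HGF: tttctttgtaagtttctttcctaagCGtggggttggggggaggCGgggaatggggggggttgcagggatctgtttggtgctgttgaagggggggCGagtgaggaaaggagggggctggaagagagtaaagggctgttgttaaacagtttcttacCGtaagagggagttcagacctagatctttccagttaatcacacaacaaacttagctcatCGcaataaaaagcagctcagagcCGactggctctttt
APP: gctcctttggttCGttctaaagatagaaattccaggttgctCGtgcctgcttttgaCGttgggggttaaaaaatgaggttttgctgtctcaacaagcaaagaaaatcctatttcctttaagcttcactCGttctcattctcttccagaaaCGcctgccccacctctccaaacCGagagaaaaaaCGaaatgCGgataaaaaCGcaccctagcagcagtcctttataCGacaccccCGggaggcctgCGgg
Genes at the floor in U266/LR7 thus had promoters with and without CpG sites. No methylation was measured.

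The gene lists that follow were compared by counts. For each list the text gives the members higher and lower in U266/LR7, the median difference beside the -0.04 of all genes, and the range of the counts over all alternative settings. The share called is to be read beside the 32.5% of all genes tested. Where a count fell below the main one, the lowest value came with a U266/s array left out or with only genes above the median signal tested.

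**Figure D3:**
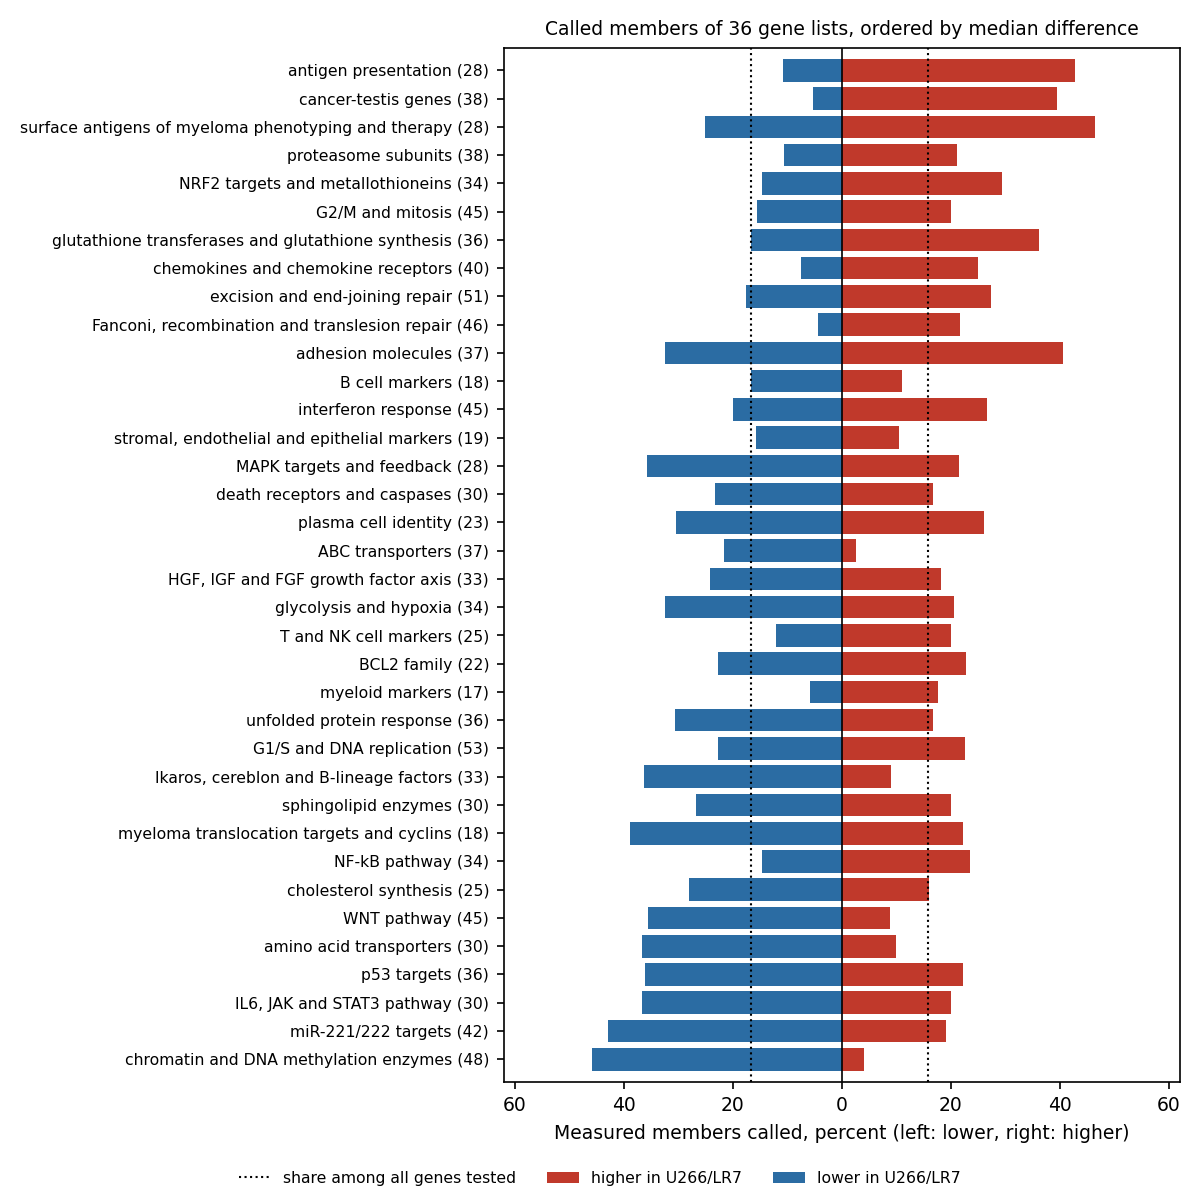
Share of the measured members of each gene list called higher (right) or lower (left) in U266/LR7, in percent, ordered by the median difference of the list; the number of measured members is in brackets. Dotted lines mark the 15.9% and 16.6% of all genes tested, and chromatin enzymes (22 of 48 lower) and antigen presentation genes (12 of 28 higher) sit at the ends.

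Surface antigens used to phenotype or treat myeloma moved in both directions. Of 28 measured, 13 were higher and 7 lower in U266/LR7 (71.4% against 32.5% of all genes), with a median of 0.17 and ranges of 9 to 13 and 3 to 8. SDC1, encoding the plasma cell marker syndecan-1 (CD138), gave 11.33 and 10.61 against 9.47 and 9.26 (1.60 ± 0.20, adjusted p = 4.14e-05). TNFRSF17, encoding the antibody and T cell therapy target BCMA, gave 11.97 and 11.47 against 10.62 and 9.92 (1.45 ± 0.17, adjusted p = 9.54e-06). SLAMF7, the target of elotuzumab, gave 8.98 and 9.87 against 7.61 and 7.36 (1.94 ± 0.22, adjusted p = 0.000592). The lines did not overlap for any of these 3, as for 62.9% of all genes tested. CD38, the target of daratumumab, gave 8.16 and 7.91 against 7.67 and 6.80 (0.80 ± 0.21, adjusted p = 0.0199). Its call was lost without the U266/s inhibitor array, which was the lowest of the 4. NCAM1 (CD56) gave 8.68 and 9.16 against 6.70 and 5.97, and CD44, the hyaluronan receptor, 11.94 and 12.87 against 10.95 and 11.10.

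Surface genes were lower as well. GPRC5D, another target of T cell therapies, gave 5.68 and 5.86 against 8.75 and 8.59 (-2.90 ± 0.20, adjusted p = 8.1e-08) and lay at the floor in U266/LR7, at least 5.98-fold below U266/s. PTPRC, the leukocyte phosphatase CD45, gave 5.70 and 5.90 against 8.79 and 8.40 (-2.79 ± 0.20, adjusted p = 2.12e-07), at least 5.66-fold. CD47, the signal that restrains phagocytosis, gave 10.25 and 10.26 against 11.67 and 11.33 (-1.24 ± 0.17, adjusted p = 2.71e-05).

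**Figure D4:**
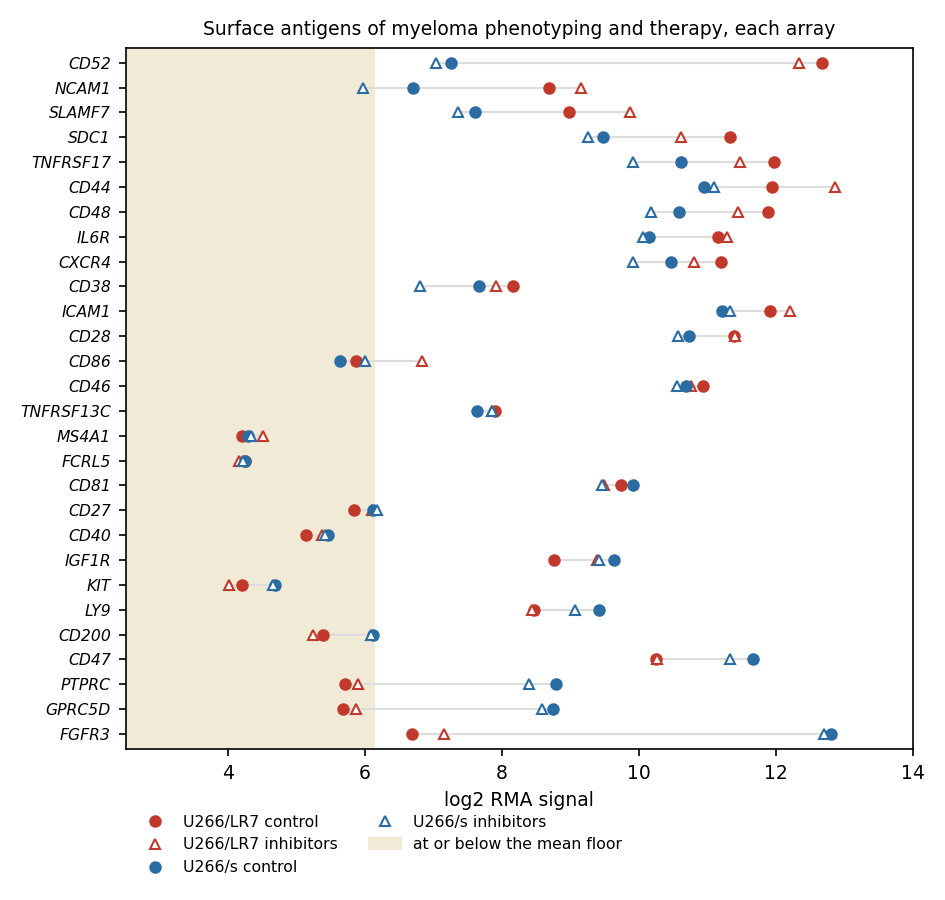
Log2 RMA signal (x axis) of the 28 measured surface antigens of myeloma on each array, ordered by the difference between lines; shading marks signals at or below the mean floor. CD52 and NCAM1 had the largest rises in U266/LR7, FGFR3 the largest fall, and GPRC5D and PTPRC lay under the floor of U266/LR7 only.

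Adhesion molecules changed in both directions, with 15 of 37 higher and 12 lower (73.0% called), a median of 0.04 and ranges of 12 to 15 and 7 to 12. Beside DSG2, the neural cadherin gene CDH2 was lower, at 5.56 and 5.40 against 9.63 and 9.71 (-4.19 ± 0.21, at least 11.9-fold). ITGB5, an integrin beta subunit, gave 6.90 and 6.50 against 10.40 and 10.04 (-3.52 ± 0.22, adjusted p = 2.33e-08). ITGB7, the partner of the integrin alpha 4 chain in gut homing, gave 10.05 and 10.57 against 12.90 and 12.90 (-2.59 ± 0.15, adjusted p = 1.1e-07), whereas that chain, ITGA4, was higher, at 9.89 and 10.54 against 9.29 and 9.0 (1.07 ± 0.21, adjusted p = 0.00141). The highest rise was that of CEACAM1, an inhibitory adhesion receptor, at 9.47 and 9.28 against 5.81 and 5.65 (3.64 ± 0.21), at least 9.16-fold. The integrin gene ITGA8 and the protocadherin gene PCDH9 were higher by at least 5.0-fold and 5.15-fold, both from the floor of U266/s.

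Chemokine genes were mostly dim, with 21 of 40 at the floor in both lines. Of the 40, 10 were higher and 3 lower (32.5% called), with a median of 0.06 and ranges of 5 to 11 and 0 to 3. CXCL10, an interferon-induced ligand of CXCR3, gave 4.22 and 3.79 against 9.10 and 9.37 (-5.23 ± 0.19, adjusted p = 3.01e-09), at least 8.85-fold lower. CCL3, the osteoclast-stimulating chemokine MIP-1 alpha, gave 12.91 and 12.85 against 11.14 and 11.06 (1.78 ± 0.14, adjusted p = 2.95e-07). CXCL16, a membrane-bound chemokine, rose by at least 3.27-fold from the floor of U266/s. The receptors CCR10, used by plasma cells, and CXCR4, which holds them in the marrow, were higher by 1.53 and 0.81.

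Antigen presentation genes rose more often than they fell, with 12 of 28 higher and 3 lower (53.6% called), a median of 0.28 and ranges of 6 to 14 and 1 to 4. Of 10 HLA class II genes measured 7 were called higher (70.0% against 15.9% of all genes), 5 of them in the 8-array fit. HLA-DRB5 gave 12.34 and 10.97 against 8.87 and 8.79 (2.83 ± 0.19, adjusted p = 6.55e-06), HLA-DPA1 13.21 and 12.76 against 11.08 and 10.77 (2.06 ± 0.14, adjusted p = 5.14e-07) and HLA-DQB1 7.94 and 7.34 against 5.49 and 5.71 (at least 2.75-fold, from the floor of U266/s). In each of these genes the U266/LR7 control array was the higher of its line. Other class II genes called higher rested on the control pair. HLA-DPB1 differed by 0.87 in the control pair and -0.12 in the inhibitor pair, and HLA-DMB by 1.29 and -0.08. HLA-DOB, not called, gave 0.70 and -0.55. CTSS, the protease cathepsin S that processes class II peptides, was lower, at 6.71 and 6.40 against 8.54 and 8.55 (-1.99 ± 0.21, adjusted p = 4.35e-06). HLA genes vary between people and resemble each other, so probes may respond to the allele as well as to the level.

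Interferon response genes split. Of 45, 12 were higher and 9 lower (46.7% called), with a median of 0.00 and ranges of 11 to 15 and 2 to 9. Antiviral effector genes led the rises. MX2 gave 10.33 and 10.49 against 7.48 and 7.37 (2.99 ± 0.22, adjusted p = 1.47e-07), OAS3 9.43 and 9.35 against 7.41 and 7.20 (2.09 ± 0.22) and OAS1 11.34 and 11.40 against 9.56 and 9.55 (1.82 ± 0.19). The lines did not overlap in any of the 3, as in 62.9% of all genes tested. PARP12, another interferon-induced gene, fell, with 7.28 and 7.94 against 10.19 and 10.21 (-2.59 ± 0.22, adjusted p = 7.15e-07), and the transcription factor IRF1 fell by 1.18 on the log2 scale. All 6 measured APOBEC3 deaminase genes were called higher, against 15.9% of all genes, and 5 of the 6 were called higher in the 8-array fit. They lie side by side on chromosome 22, share sequence, and were chosen after their values were seen. APOBEC3H had the largest difference, at 8.82 and 8.38 against 5.83 and 5.30 (adjusted p = 5.52e-08), at least 5.34-fold from the floor of U266/s, and APOBEC3G the smallest, at 0.48 (adjusted p = 0.0732).

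Cytokine and growth factor signalling genes moved in both directions. In the IL6, JAK and STAT3 pathway 6 of 30 were higher and 11 lower (56.7% called against 32.5% of all genes, median -0.22, ranges 2 to 6 and 7 to 11). The ligand IL6 and its receptor gene IL6R, at 11.16 and 11.29 against 10.15 and 10.06 (1.12 ± 0.18, adjusted p = 7.37e-05), were both higher. The anti-inflammatory cytokine gene IL10 was lower, at 5.59 and 5.61 against 7.87 and 9.23 (adjusted p = 9.64e-06), at least 5.49-fold down to the floor, with its 2 U266/s arrays apart by more than 1 log2 unit. Its receptor gene IL10RA was lower by -1.49. In the HGF, IGF and FGF axis 6 of 33 were higher and 8 lower (42.4% called, median -0.10), with overlapping ranges of 4 to 8 and 4 to 9. HGF fell, but its receptor gene MET was higher, at 9.77 and 10.28 against 9.05 and 8.53 (1.23 ± 0.21, adjusted p = 0.000628), as were SPINT2, at 9.01 and 8.86 against 6.53 and 6.55 (2.39 ± 0.21, adjusted p = 1.82e-07), and SPINT1 (1.82), which encode inhibitors of the proteases that activate HGF. FGFR2, at the floor in U266/LR7, was at least 2.43-fold lower, and FGFR1 (1.11) was higher.

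WNT pathway genes had 4 of 45 higher and 16 lower (44.4% called), with a median of -0.16 and ranges of 1 to 6 and 9 to 17. FRZB, a secreted WNT antagonist, gave 4.54 and 4.63 against 11.10 and 10.79 (-6.36 ± 0.21, adjusted p = 5.37e-09), at least 28.9-fold lower. The co-receptor gene LRP6 gave 5.14 and 4.86 against 8.60 and 8.36 (-3.48 ± 0.19, at least 5.25-fold) and ROR1, a WNT5A receptor, 5.62 and 5.92 against 8.52 and 8.55 (-2.76 ± 0.20, at least 5.44-fold). Other members moved differently. ROR2, a relative of ROR1, was higher (1.19, adjusted p = 5.56e-05). Of the other antagonists of the list, DKK1 to DKK4, SFRP1, SFRP4, SFRP5 and WIF1 were not called. All of these but DKK3 and SFRP5 lay at the floor in both lines. SFRP2 was called higher (0.56), but not in the 8-array fit (adjusted p = 0.0943). Its lines overlapped, and the matched pairs gave -0.06 (control) and 1.18 (inhibitors). TLE1, a transcriptional co-repressor, fell by 1.65 on the log2 scale.

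MAPK targets and feedback genes had 6 of 28 higher and 10 lower (57.1% called, median -0.06, ranges 4 to 7 and 7 to 12). Apart from MYC, the ETS factor genes ETV1, at 8.28 and 8.12 against 6.12 and 5.90 (2.19 ± 0.20), and ETV4, at 9.95 and 9.50 against 8.22 and 7.83 (1.70 ± 0.22), were higher, and the scaffold gene KSR1 was lower by -1.55. In the NF-kB pathway 8 of 34 were higher and 5 lower (38.2% called against 32.5% of all genes, median -0.14, ranges 2 to 9 and 3 to 7). NFKB1, which encodes the p50 subunit and its precursor, gave 8.71 and 8.75 against 10.73 and 10.76 (-2.02 ± 0.21, adjusted p = 6.96e-06), and BCL3, a partner of p50, fell by 1.26 on the log2 scale.

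Among myeloma translocation targets and cyclins 4 of 18 were higher and 7 lower (61.1% called, median -0.14, ranges 3 to 4 and 3 to 8). MAF, a transcription factor activated by translocation in some myelomas, gave 7.87 and 8.16 against 10.14 and 9.99 (-2.04 ± 0.22, adjusted p = 2.63e-06). NSD2, the histone methyltransferase gene that neighbours FGFR3 in such translocations, gave 8.62 and 8.77 against 9.81 and 9.40 (-0.91 ± 0.22, adjusted p = 0.00186), and its call was lost without the U266/s control array.

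Among transcription factors of the B lineage more were lower than higher. The list of Ikaros, cereblon and B-lineage factors had 3 of 33 higher and 12 lower (45.5% called, median -0.13, ranges 3 to 5 and 7 to 15). IKZF1, Ikaros, gave 6.26 and 6.76 against 10.60 and 10.40 (-3.99 ± 0.22, adjusted p = 4.25e-08). CRBN, encoding cereblon, through which lenalidomide and related drugs direct Ikaros proteins to degradation, gave 10.33 and 10.34 against 8.66 and 8.03 (1.99 ± 0.21, adjusted p = 6.09e-06). The drug receptor was thus higher and one of its substrates lower. RUNX2, a runt-domain factor, was lower by -1.87, and ID3, an inhibitor of helix-loop-helix factors, higher by 2.44, at 9.10 and 9.70 against 6.72 and 7.20.

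Cancer-testis genes, normally limited to the germline, were higher in U266/LR7 in 15 of 38 cases and lower in 2 (44.7% called, median 0.24, ranges 8 to 17 and 0 to 2), and 18 of the 38 were at the floor in both lines. Beside BRDT, PAGE2 gave 9.46 and 8.68 against 5.78 and 5.58 (3.39 ± 0.20), at least 7.42-fold, MAGEB2 10.67 and 10.40 against 8.03 and 7.71 (2.66 ± 0.21) and MAGEC1 10.75 and 10.67 against 8.16 and 8.14 (2.56 ± 0.21). For these 3 the adjusted p was 2.36e-07, 1.45e-06 and 4.6e-07. MAGE and PAGE genes have close copies, so signal may be shared between members. The 2 lower genes were SPA17 (-1.81) and MORC1 (-1.79).

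Among genes of drug uptake, more were lower than higher. Of 30 amino acid transporters 3 were higher and 11 lower (46.7% called, median -0.20, ranges 1 to 3 and 7 to 12). SLC7A5, the light chain of the LAT1 transporter that carries melphalan, gave a mean of 9.83 ± 0.25 (SD, n = 2) against 12.04 ± 0.02, with differences of -2.40 and -2.02 in the 2 pairs (-2.21 ± 0.17, adjusted p = 2.9e-07). The related SLC7A8, of the LAT2 transporter, was higher, at 8.76 and 9.55 against 6.97 and 7.68 (1.83 ± 0.22, adjusted p = 8.25e-06). SLC1A5 and SLC38A2, 2 glutamine carriers, fell by 1.18 and 2.23 on the log2 scale. The largest falls were those of SLC38A5, at 5.82 and 5.52 against 10.79 and 10.95 (at least 27.5-fold), the arginine carrier SLC7A2 (at least 7.12-fold), SLC6A15 (at least 4.94-fold) and SLC16A10 (at least 7.28-fold), all at the floor in U266/LR7.

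In the list of ABC transporters, which is not limited to drug efflux pumps, 1 of 37 was higher and 8 lower (24.3% called against 32.5% of all genes, median -0.09, ranges 0 to 2 and 5 to 10). Of the 37, 11 lay at the floor in both lines. ABCC1, encoding the pump MRP1, gave 9.02 and 8.56 against 10.59 and 10.70 (-1.86 ± 0.21, adjusted p = 3.32e-05), and ABCC4, encoding MRP4, 5.09 and 4.95 against 8.56 and 8.53 (-3.52 ± 0.19, at least 5.48-fold). ABCB1, the P-glycoprotein gene, was at the floor in both lines, at 4.91 and 4.85 against 4.93 and 5.12.

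Glutathione genes rose more often than they fell, with 13 of 36 higher and 6 lower (52.8% called, median 0.06, ranges 11 to 14 and 1 to 6). Besides GSTM1 and GSTT1, the peroxidase gene GPX1 was higher, at 10.73 and 10.49 against 8.09 and 8.10 (2.52 ± 0.21, adjusted p = 1.75e-07). So was GSTP1, the transferase most often studied with alkylating drugs, at 12.87 and 12.50 against 11.73 and 11.49 (1.07 ± 0.13, adjusted p = 1.27e-05). Of 5 GSTM genes, which share sequence, 4 were called higher. The microsomal transferase gene MGST1 moved the other way, at 4.33 and 4.37 against 9.95 and 9.45 (-5.35 ± 0.20, at least 12.2-fold), as did GPX7, at least 5.14-fold lower and at the floor in U266/LR7. NRF2 targets and metallothioneins had 10 of 34 higher and 5 lower (44.1% called, median 0.09, ranges 6 to 13 and 2 to 6). The reductase genes AKR1C3, at least 1.37-fold from the floor of U266/s, and CBR1 (1.52) were higher, ME1 (-1.83) and SRXN1 (-1.76) lower, and NFE2L2, the gene of NRF2 itself, fell by 1.05 on the log2 scale.

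DNA repair genes showed moderate differences. In the Fanconi, recombination and translesion list 10 of 46 were higher and 2 lower (26.1% called, median 0.04), and 1 of 46 was higher without the U266/s inhibitor array, so this count did not hold (ranges 1 to 13 and 1 to 7). RAD54B, a recombination ATPase, had the largest difference, at 8.09 and 8.42 against 6.76 and 6.69 (1.53 ± 0.21, adjusted p = 1.14e-05). WRN, a helicase, was lower by -1.02, and BRIP1, a BRCA1 partner, higher by 0.95 with its call lost without the U266/s inhibitor array. In excision and end-joining repair 14 of 51 were higher and 9 lower (45.1% called, median 0.05), falling to 3 and 3 without the U266/s inhibitor array (ranges 3 to 15 and 3 to 11). The damage sensors DDB2, at 10.25 and 10.17 against 8.99 and 8.95 (1.24 ± 0.21), and XPC, at 8.0 and 7.66 against 6.69 and 6.52 (1.22 ± 0.20), were higher. MGMT, which removes alkyl groups from guanine, was lower, at 6.63 and 6.70 against 7.76 and 7.97 (-1.20 ± 0.20, adjusted p = 6.69e-05), as was the glycosylase gene NEIL3 (-1.35).

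Genes that set the threshold for apoptosis moved in both directions. PMAIP1, the BH3-only protein NOXA and a p53 target, gave 4.99 and 5.14 against 9.45 and 9.66 (-4.49 ± 0.20, adjusted p = 9.16e-09), at least 11-fold lower. BCL2L1, encoding the survival protein BCL-XL, gave 11.55 and 10.92 against 10.16 and 9.99 (1.16 ± 0.18, adjusted p = 6.61e-05). BCL2 was not called, at 9.02 and 9.36 against 9.22 and 8.84 with overlap of the lines. MCL1, on which myeloma cells depend, gave 11.97 and 11.97 against 11.72 and 11.47 and lost its call in the 8-array fit (0.38 ± 0.14, adjusted p = 0.0597). The BCL2 family had 5 of 22 higher and 5 lower (45.5% called, median -0.12, ranges 3 to 6 and 1 to 5). Among p53 targets 8 of 36 were higher and 13 lower (58.3% called, median -0.21, ranges 3 to 9 and 9 to 16). The death receptor gene FAS gave 9.66 and 9.31 against 11.23 and 11.15 (-1.71 ± 0.19, adjusted p = 2.6e-06), EDA2R was at least 2.95-fold lower, at the floor in U266/LR7, and CDKN1A, the p21 cell cycle inhibitor, was higher, at 8.10 and 8.27 against 7.22 and 7.37 (0.89 ± 0.21, adjusted p = 0.0016). Death receptors and caspases had 5 of 30 higher and 7 lower (40.0% called, median -0.07, ranges 2 to 8 and 5 to 9). They were led by TNFRSF1B, the second TNF receptor, at 6.60 and 6.68 against 10.11 and 10.25 (-3.54 ± 0.22, adjusted p = 1.16e-08).

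Cell cycle genes were called in both directions. In G1/S and DNA replication 12 of 53 were higher and 12 lower (45.3% called, median -0.13, ranges 4 to 15 and 6 to 19), and in G2/M and mitosis 9 of 45 and 7 (35.6% called, median 0.06, ranges 3 to 16 and 2 to 13). The mean signal of the G2/M list was 9.77 and 10.04 against 10.01 and 9.77. Its 2 matched pairs thus ran opposite ways, and the counts average over them. RB1, the retinoblastoma protein that restrains S phase entry, gave 7.33 and 7.99 against 9.87 and 9.51 (-2.03 ± 0.22, adjusted p = 2.36e-05). CDK6, one of its kinases, gave 9.13 and 10.63 against 11.73 and 11.71 (-1.84 ± 0.18, adjusted p = 0.000257), with its U266/LR7 arrays apart by more than 1 log2 unit. The inhibitor CDKN2A was lower by -1.43. UBE2C, a ubiquitin-conjugating enzyme of mitotic exit, was lower by -2.24 and PTTG1, securin, higher by 1.56.

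Reported targets of miR-221 and miR-222 were lower in U266/LR7 in 18 of 42 cases and higher in 8 (61.9% called), with a median of -0.29 and ranges of 9 to 22 and 3 to 10. PTPRM, a receptor phosphatase, gave 5.83 and 6.05 against 10.31 and 10.50 (-4.46 ± 0.22, adjusted p = 4.93e-09), at least 19.9-fold. TRPS1, a GATA-type repressor, was at least 3.96-fold lower and GRB10, a growth factor receptor adaptor, at least 2.7-fold, both at the floor in U266/LR7. CDKN1B, the p27 cell cycle inhibitor and the best known target, gave 10.18 and 10.24 against 11.56 and 11.28 (-1.21 ± 0.18, adjusted p = 4.85e-05). Its U266/LR7 control and inhibitor arrays were apart by less than its U266/s arrays. BNIP3 and BNIP3L, 2 mitophagy genes of the list, were higher by 1.30 and 0.84.

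Chromatin and DNA methylation enzymes had the lowest median of all lists, -0.46, with 2 of 48 higher and 22 lower (50% called, ranges 0 to 3 and 11 to 26). SMARCA2, a SWI/SNF ATPase, gave 7.68 and 8.02 against 9.82 and 9.57 (-1.85 ± 0.22, adjusted p = 7.49e-06). The 5-methylcytosine oxidase genes TET1 and TET3 were lower, TET1 by at least 1.39-fold to the floor and TET3 by a log2 difference of -1.19, and the histone demethylase gene KDM1A by -1.10. TRIM28, the co-repressor that zinc finger repressors recruit, gave 10.96 and 10.99 against 11.79 and 11.96 (-0.90 ± 0.16, adjusted p = 5.47e-05), and HDAC1 was lower by -0.98. The differences were moderate in size and ran 1 way in most of the genes called.

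Metabolic and secretory genes completed the comparison. Sphingolipid enzymes had 6 of 30 higher and 8 lower (46.7% called, median -0.14, ranges 3 to 8 and 4 to 8). Among them CERS6, a ceramide synthase, gave 5.46 and 5.29 against 11.33 and 11.34 (at least 37.9-fold lower). UGT8, a galactosylceramide synthase, gave 5.80 and 5.46 against 9.61 and 8.87 (at least 8.88-fold lower). The acid ceramidase gene ASAH1 was higher by 1.30. Glycolysis and hypoxia genes had 7 of 34 higher and 11 lower (52.9% called, median -0.11, ranges 6 to 9 and 5 to 15). Hexokinase 2, HK2, was lower, at 7.82 and 8.01 against 10.61 and 10.36 (-2.57 ± 0.21, adjusted p = 2.72e-07). In the cholesterol synthesis list, which also holds fatty acid genes, 4 of 25 were higher and 7 lower (44.0% called, median -0.16, ranges 3 to 5 and 4 to 10). The largest differences were in fatty acid genes, with FASN at -1.97 and the desaturase genes FADS1 and FADS2 at 1.85 and 1.71. Of the cholesterol enzyme genes, NSDHL was lower (-0.70), TM7SF2 higher (0.75), and HMGCS1 and SQLE were not called. The unfolded protein response had 6 of 36 higher and 11 lower (47.2% called, median -0.13, ranges 1 to 7 and 4 to 13). Its disulphide isomerase gene PDIA4 gave 10.25 and 10.16 against 11.65 and 11.84 (-1.54 ± 0.17, adjusted p = 4.92e-06). Proteasome subunits, the target of bortezomib, had 8 of 38 higher and 4 lower (31.6% called, median 0.11). Without the U266/s inhibitor array 0 were called in either direction, with ranges of 0 to 10 and 0 to 7. Among plasma cell secretory genes, MZB1, an endoplasmic reticulum chaperone of antibody assembly, was lower, at 7.60 and 6.94 against 9.71 and 9.70 (-2.43 ± 0.22, adjusted p = 1.57e-06).

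Position in the genome was examined last, with families chosen after their values were seen. ZNF genes encode zinc finger proteins, and many of them lie in clusters on chromosome 19. Of 237 measured there, 133 were higher in U266/LR7 and 20 lower, with a median of 0.67 and ranges of 65 to 138 and 7 to 24. These are shares of 56.1% and 8.44%, against 15.9% and 16.6% of all genes tested. The 257 ZNF genes of other chromosomes had 38 higher and 57 lower (14.8% and 22.2%, median -0.10). The 1071 other genes of chromosome 19 had 153 higher and 106 lower (14.3% and 9.9%, median -0.01). Median signals of the chromosome 19 ZNF genes were 7.72 and 7.82 against 7.22 and 7.0, and 34 of them were at the floor in U266/s only. With the error of the 8-array fit, which rests on the same differences, 135 were called higher and 21 lower. ZNF729 gave 9.29 and 9.37 against 4.12 and 4.44, at least 8.87-fold, and ZNF676 8.40 and 9.34 against 5.03 and 4.52, a difference of 4.09. These genes arose by duplication, so probes may respond to several of them.

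**Figure D5:**
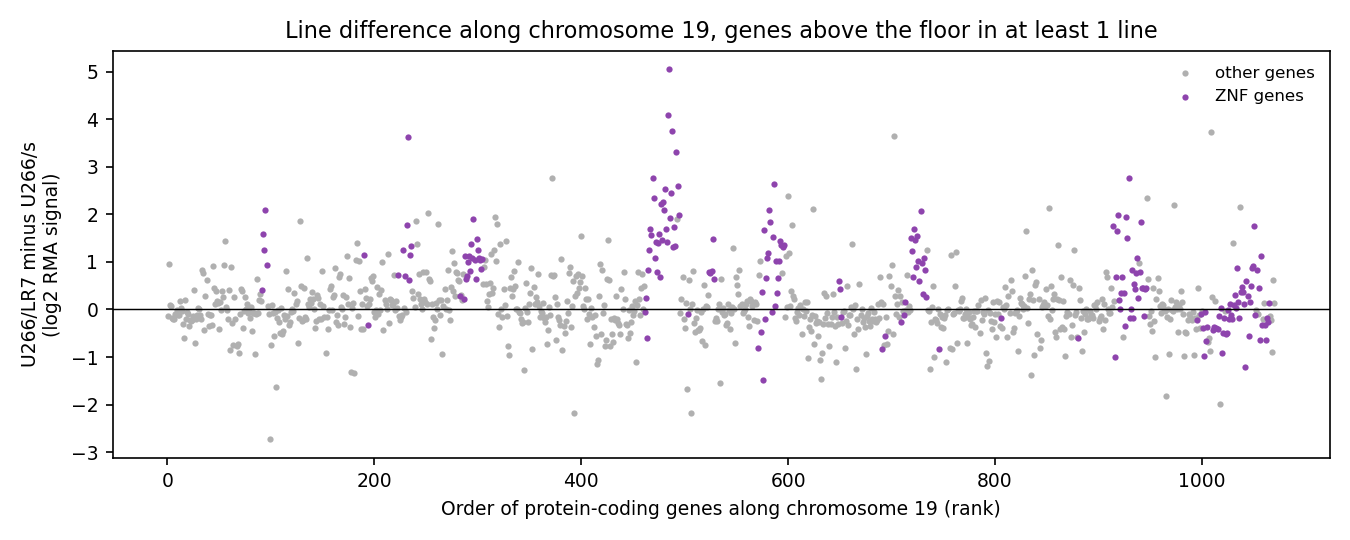
Log2 difference between U266/LR7 and U266/s (y axis) of protein-coding genes above the floor in at least 1 line, in their order along chromosome 19 (x axis, rank). ZNF genes (purple) lie mostly above 0 in several clusters, with ZNF729 the highest at 5.05.

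Runs of at least 6 neighbouring protein-coding genes called in 1 direction numbered 29, of which 17 were higher and 12 lower in U266/LR7. They held 244 of 13097 ordered genes. Genes at the floor in both lines were not part of this order, so a run can span genes that were not called. The longest ran from ZNF253 to ZNF254 on chromosome 19 with 31 genes higher, 30 of them ZNF genes, by a median of 1.74. Another on the same chromosome, from ZNF823 to DHPS, held 21 genes. On chromosome 3 the 9 genes from CNTN6 to EDEM1, which include CRBN, were higher by a median of 1.32. On chromosome 4 the 10 genes from CDKL2 to CCNI, which include CXCL10, were lower by a median of -1.23, and on chromosome 7 the 10 genes from RHEB to RBM33 by -0.64. By whole chromosome, the share of genes called higher reached 24.3% on chromosome 3, 22.6% on chromosome 15 and 21.9% on chromosome 19, and the share called lower 26.5% on chromosome 18 and 25.8% on chromosome 4, against 15.9% and 16.6% of all genes. DNA copy number was not measured.

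Small nuclear RNA genes, which encode the RNA parts of the spliceosome, were higher in 18 of 20 cases and lower in 0, with a median of 1.30. The share higher was 90.0%, against 15.9% of all genes tested, and 17 were higher in the 8-array fit. RNU5E-1 gave 11.27 and 11.78 against 8.26 and 8.38 (3.20 ± 0.20, adjusted p = 8.79e-07). Their median signal was 7.61 and 7.42 against 6.14 and 6.36. On the melphalan arrays the order was the opposite, with medians of 7.18 and 7.53 against 7.80 and 7.98. Small nucleolar RNA genes had 60 of 175 higher and 13 lower (34.3% and 7.43%, against 15.9% and 16.6% of all genes, median 0.24). The share of such short RNAs that an RNA preparation keeps was not measured, and its part in these values was not tested.

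The melphalan arrays, which the 4-array comparison did not use, gave the same lines in another state. Of the 5984 called genes, 79.3% had the same direction in both melphalan pairs, and of the 2334 with at least a 2-fold difference 89.8%. Among genes not called the share was 54.5%. CCR2 gave 11.62 and 11.69 against 5.48 and 5.26 with melphalan, and HGF 4.80 and 4.35 against 8.69 and 9.0. The quartile range of signals was narrower on the U266/s melphalan arrays, 3.25 and 3.34, than on the U266/LR7 melphalan arrays, 3.71 and 3.69, and its part in these values was not tested. CCND1, in contrast, gave a difference of -0.21 and -0.39 in the 2 melphalan pairs, against 1.24 without melphalan.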

How the data were processed

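RNA of 8 samples was measured on 1-colour gene arrays, and 4 of them were compared here. The deposited values are log2 signals that the authors made with Affymetrix Expression Console and RMA, per the submitters' processing notes. For versions and genome build, the sources used here give nothing. The table held 33297 transcript clusters and 0 columns of no sample. Of the clusters, 19460 carried 1 gene symbol, 1754 several and 12083 none, and 19429 of the first matched RefSeq by gene ID. For 769 genes with more than 1 cluster the brightest was kept, which gave 18417 genes.

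The model in limma 3.58.1 (R 4.3.3) had terms for the line and the transfection, with an error that followed signal strength (trend), and Benjamini-Hochberg adjusted p-values, called under 0.05. Tables were made with Python 3.11.15, pandas 2.3.3 and numpy 2.4.6. On simulated data with 200 changed genes, 95% of changes of 1 log2 unit and 100% of changes of 2 were recovered, with 8 and 3 false calls. The simulated noise was drawn from the shrunken variances that the fit itself assumes. It could therefore not test whether the error of the 4-array fit is right. The 4-array fit shrank each gene's variance fully to the trend, so the adjusted p of single genes is that of an 8-array fit with added terms for melphalan and its interaction with the line, its use chosen after seeing the data. The number of arrays limits the precision.

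Named genes are the 15 largest differences each way, the 10 largest each way above the floor in both lines, the identity and marker genes given, and up to 4 members per list. Others were named after their values were seen. The genes and the 37 lists (1136 of 1241 members measured) were chosen with earlier results of these data known. A gene not carried alone by a cluster was not analysed here.

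Alternatives were genes above the median signal, median centring, quantile and cyclic loess normalization, the mean of a gene's clusters, no intensity trend, no block, all 8 arrays, other floors, and leaving out each array.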

Additional observations from a re-analysis of the deposited data

Results flagged for a closer look

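Of the 183 genes chosen by the naming rule, 64 had a line difference with melphalan that differed from the one without it by at least 1 log2 unit, by a limma interaction term over the 8 arrays with an adjusted p under 0.05. Genes named outside that rule were not screened. The interaction is the line difference with melphalan minus that without, and 93 of the 183 had an adjusted p under 0.05 at any size. Many of the 183 were named for a large difference on the arrays without melphalan, which by itself favours a smaller one on other arrays. In 62 of the 64 the mean difference of the melphalan pairs was smaller in size, a count that this choice of genes favours. The others were CD68, -1.39, where the difference turned from 0.58 to -1.13 and -0.49, and RAD54B, 1.09, where it went from 1.53 to 2.5 and 2.75. At least 1 line was at the floor without melphalan for 33 of the 64, where the sizes are uncertain.

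The largest interactions were in THEMIS, 3.9 (adjusted p = 3.4e-05), with -6.09 without melphalan and -2.03 and -2.37 with it, and in CXCL10, 3.85 (adjusted p = 3.4e-05). MYC had 2.62 (adjusted p = 0.0001), with melphalan pairs of -3.50 and -2.87. RB1 had 2.66, and its melphalan pairs, 0.87 and 0.39, lay on the other side of 0. Among other genes lower in U266/LR7 the interaction was 2.9 for DSG2, 2.38 for HGF, 2.37 for IL10, 2.36 for SLC6A15, 2.34 for CERS6, 2.22 for SLC16A10 and GUCY1A1, 2.15 for ANK3, 2.14 for SMAD1, 2.12 for UGT8 and 2.1 for FRZB. It was 1.95 for CLIC2, 1.94 for ABCC4 and SLC7A2, 1.84 for CR2, 1.82 for ERO1B, 1.77 for IQGAP2, 1.76 for MGST1, 1.73 for EPCAM, 1.67 for APP and NFKB1, 1.65 for ROR1, 1.61 for WRN, 1.56 for SGPP2 and 1.53 for TRPS1. The remaining lower genes had 1.49 for LRP6, 1.42 for NEIL3, 1.41 for CDH2, 1.37 for PARP12 and GPX7, 1.29 for LIFR, 1.26 for FAS, 1.25 for ME1, 1.19 for FGFR2, 1.14 for SLC7A5, 1.11 for EDA2R, 1.09 for IGKC, 1.08 for KDM1A, 1.05 for ANXA1 and 1.0 for IL10RA.

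Among genes higher in U266/LR7 it was -2.45 for PAGE2, -2.1 for PAGE2B, -1.73 for MAGEB2, -1.63 for DSCR8, -1.56 for FADS1, -1.35 for CCL3, -1.34 for FCER1G, -1.27 for HAVCR1, -1.26 for INA, -1.24 for FADS2, -1.23 for MX2, -1.18 for OAS1, -1.13 for CD52, -1.08 for GSTT1, -1.06 for PTTG1 and -1.05 for SPINT2. For CCND1 it was -1.54 (adjusted p = 0.000217), with melphalan pairs of -0.21 and -0.39. SDC1 had -1.32, with melphalan pairs of 0.46 and 0.09. The U266/s melphalan arrays had the narrower quartile ranges given in the report, and the part of this in the interactions was not tested.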

How the results depend on the processing

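The count of 5984 differing genes stayed between 5806 and 6397 under centring on medians, cyclic loess or quantile normalization, the mean of a gene's clusters, no intensity trend, no block (5817) and 8 arrays. Among genes above the median signal 4264 of 9208 were called, 1473 of them by at least 2-fold, and 38 genes at the floor in U266/LR7 and 14 at the floor in U266/s remained in the tested set and were called. Leaving out 1 array gave 3359 to 6561 calls, 1469 to 3258 of them higher and 1866 to 3407 lower, with the low values from leaving out a U266/s array. These fits had no block, and the lone array of a line was assumed to vary like the rest. MIR222 gave -2.05 without the U266/s control array and reversed, to 0.12, without the U266/s inhibitor array. Of 183 named genes 176 were called, 159 kept their call under every alternative run, and LYZ, MCL1 and MIR222 lost it in the 8-array fit. The matched pairs share a transfection, which was the block. No other pairing could be made, since the labels give no replicate number that pairs samples. With 1 array per condition, differences near the smallest one called, 0.256 log2 units, rest on an error borrowed from other genes, and genes at the floor of a line have only a bound there.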
